A study of Homo sapiens with 2 samples.

Results

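YAP1, its paralogue WWTR1 (which encodes TAZ), the 4 TEAD transcription factors and 4 of their direct target genes, CCN1 (CYR61), CCN2 (CTGF), ANKRD1 and AMOTL2, were examined on arrays of hTERT-RPE1 cells. The members were chosen by name, with earlier results of these data known. Every probe set of the deposited table whose only gene symbol was 1 of these 10 genes was used. This gave 21 probe sets out of 54613, or 10 genes out of 19775 with a probe set of a single gene name. Of the 21 probe sets, 18 had a signal of 100 or more on at least 1 array, the filter used for counts below, and every gene had at least 1 such probe set.

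hTERT-RPE1 is a human cell line from retinal pigment epithelium that was made immortal with telomerase. Both groups were grown with 10% fetal bovine serum and hygromycin B and transfected with Lipofectamine RNAiMAX for 72 h. The control group received a control oligo and the other group a miR-129-3p oligo, labelled as overexpression. The comparison is thus of an added oligo and not of the cells' own microRNA. No level of this microRNA was measured here. Each group was 1 Affymetrix array, made from 100 ng of total RNA. There were thus no replicates, no spread between cultures could be given, and no test was made; differences describe this pair of arrays. The series title places the experiment in a study of cilium assembly, CP110 and actin dynamics.

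The Hippo pathway is a kinase cascade that keeps YAP and TAZ out of the nucleus by phosphorylating them. When the cascade is inactive, as in spread cells with tensed actin fibres, YAP and TAZ enter the nucleus and bind TEAD factors, which recognise DNA, and the complex switches on genes such as CCN1, CCN2 and ANKRD1. Control of YAP and TAZ is largely at the level of protein, by phosphorylation, location and stability, which an RNA array does not read. CCN1, CCN2 and ANKRD1 are also known targets of SRF and its actin-sensing cofactors, so they are not readouts of YAP alone.

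The transfected agent is shown by its mature sequence because its seed, bases 2 to 8 and in capitals here, determines which transcripts a microRNA pairs with. RefSeq (GRCh38.p14) lists a mature miR-129-3p from each of 2 loci, at chr7:128207920-128207941 and chr11:43581450-43581471, both on the plus strand, and the labels name the oligo without the locus. The 2 forms differ at 1 of 22 bases, position 20 from the 5′ end, and share the seed.
hsa-miR-129-1-3p: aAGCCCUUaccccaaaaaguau
hsa-miR-129-2-3p: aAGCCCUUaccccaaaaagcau
Matches to this seed in the transcripts of the members were not analysed here.

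The promoters of the targets are shown because TEAD factors bind the letters GGAATG, which read CATTCC on the other strand. RefSeq windows of the 250 bases before each start were available for 7 of the 10 genes; CCN1, TEAD1 and TEAD4 were the others. The CCN2 window (chr6:131951373-131951622, minus strand, GRCh38.p14) held 3 copies, starting 169, 104 and 95 bases before the start. The ANKRD1 window (chr10:90921088-90921337, minus strand) held 2 copies, starting 220 and 128 bases before the start. Capitals mark the motif.
CCN2: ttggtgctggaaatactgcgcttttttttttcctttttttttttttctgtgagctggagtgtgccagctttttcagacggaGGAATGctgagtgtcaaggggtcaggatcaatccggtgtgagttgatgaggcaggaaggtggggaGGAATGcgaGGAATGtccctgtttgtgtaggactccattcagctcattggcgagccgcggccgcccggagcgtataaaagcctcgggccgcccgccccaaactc
ANKRD1: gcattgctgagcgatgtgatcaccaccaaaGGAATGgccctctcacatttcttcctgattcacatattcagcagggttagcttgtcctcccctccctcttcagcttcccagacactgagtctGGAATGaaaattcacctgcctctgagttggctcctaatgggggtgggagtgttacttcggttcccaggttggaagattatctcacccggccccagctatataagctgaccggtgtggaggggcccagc

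AMOTL2 had a window for each of 2 starts, and 1 of them held the motif once, on the opposite strand. The YAP1 window also held 1 copy, although YAP1 was not among the genes with lower signal (below). For these, 30 bases around the motif are given, from chr3:134374499-134374528 on the minus strand and chr11:102110273-102110302 on the plus strand.
AMOTL2: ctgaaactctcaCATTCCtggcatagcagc
YAP1: cgggagtgtgcaGGAATGtagcaacttgca
The windows of WWTR1, TEAD2 and TEAD3 did not hold these letters. In all, 4 of 10 windows of the members held the motif, against 4175 of 35116 windows (11.9%) over all RefSeq genes, counting either strand. At least 2 copies were present in 0.94% and at least 3 in 0.0826% of all windows. The CCN2 and ANKRD1 promoters are textbook TEAD-bound promoters, so the matches describe known sequences and are not a result of these arrays.

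On the brightest probe set of each gene, the co-activators YAP1 and WWTR1 had similar or slightly higher signals on the miR-129-3p array. On the same measure the 4 TEAD genes had moderately lower signals, and the 4 targets had much lower signals. On log2(signal + 16), miR-129-3p minus control, the probe set with the highest mean level differed by 0.07 and 0.11 for the co-activators, by -0.76 to -0.32 for the TEAD genes and by -3.77 to -1.41 for the targets. The 3 role groups did not overlap. All 4 targets were at least 2-fold lower and none of the other 6 genes was, so 4 of 10 members were at least 2-fold lower and 0 at least 2-fold higher. At least 3-fold lower were 3 members, CCN1, CCN2 and ANKRD1, against 1.73% of genes. Over all 12754 genes above the filter 4.56% were at least 2-fold lower and 7.83% at least 2-fold higher. Among genes at 1000 or more in control, a background chosen after the values were seen, 7.81% were at least 2-fold lower. Of the members, 8 were that bright in control and 4 of these were lower. This limit was set on the control array alone, so it favours genes that are lower with miR-129-3p. ANKRD1 and AMOTL2 were under 1000 on the miR-129-3p array. The median over the 10 members was -0.66, and over all genes above the filter 0.03.

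**Figure D1:**
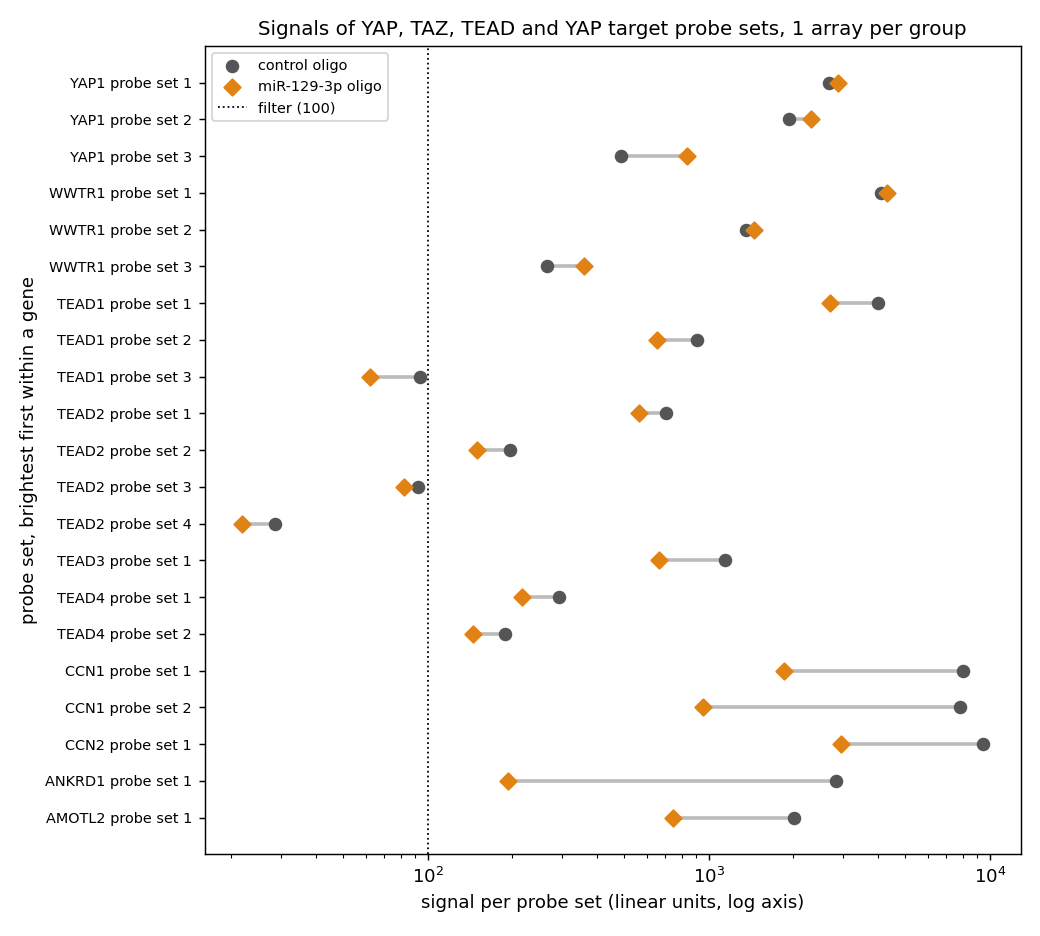
Signal of each of the 21 member probe sets on the control array (circles) and the miR-129-3p array (diamonds), on a logarithmic axis in linear signal units; the dotted line is the filter at 100 and each grey bar joins the values of 1 probe set. The 6 YAP1 and WWTR1 probe sets lie to the right with miR-129-3p, by at most 1.69-fold, the 10 TEAD probe sets to the left, by at most 1.69-fold, and the 5 target probe sets to the left by 2.66-fold or more; levels of different probe sets cannot be compared with each other.

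ANKRD1 had the largest difference of the members. It encodes a muscle ankyrin repeat protein that shuttles between the sarcomere or cytoplasm and the nucleus. Its only probe set (206029_at) read 2828 on the control array and 193 on the miR-129-3p array, so 6.81% of the control signal was left. The log2 difference was -3.77, 13.6-fold lower on this scale, and 9 of the 12754 genes above the filter had a more negative one. The signal with miR-129-3p was above the filter but low enough for the size to move with the added constant, from -3.87 with a constant of 1 to -3.49 with 64.

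CCN1 and CCN2 encode secreted matricellular proteins that bind integrins and are used as standard readouts of YAP activity. CCN1 was measured by 2 probe sets. The first (201289_at) read 8046 on the control array and 1858 on the miR-129-3p array, a log2 difference of -2.11. The second (210764_s_at) read 7842 and 954, a difference of -3.02. Both CCN1 probe sets were thus far lower, at 23.1% and 12.2% of control, but they disagreed on the size by 0.91, more than the pooled SD of 0.37 between probe sets of 1 gene (over 6179 genes). CCN2, on its only probe set (209101_at), read 9483 and 2961, 31.2% of control and a difference of -1.67. Of all genes above the filter 1.56% had a more negative difference than CCN2, and 0.729% a more negative one than the brighter CCN1 probe set.

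AMOTL2, an angiomotin family scaffold of cell junctions that binds YAP and is itself switched on by it, had the smallest difference of the 4 targets. Its only probe set (203002_at) read 2007 on the control array and 743 on the miR-129-3p array. The difference was -1.41, 2.66-fold lower, and 2.24% of genes had a more negative one. Thus ANKRD1, CCN2 and AMOTL2 each rest on 1 probe set, and CCN1 alone has a second probe set for comparison. Of the 18 member probe sets above the filter, 5 were at least 2-fold lower, all of them in the targets, against 4.8% of 23707 probe sets with a single gene name. At 1.5-fold, 6 were lower, against 11.1%.

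**Figure D2:**
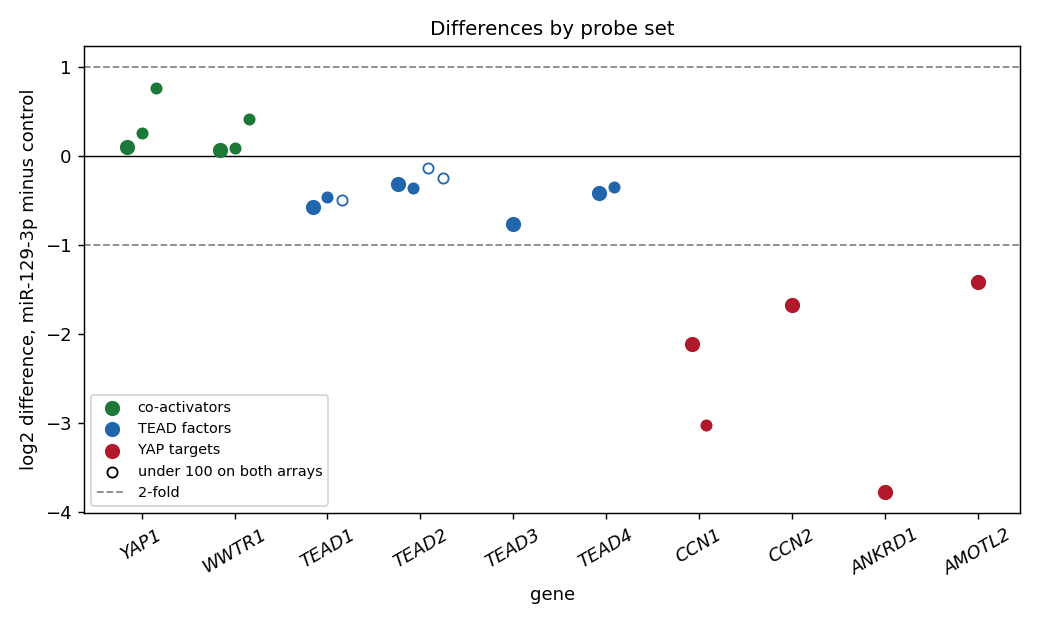
Log2 difference, miR-129-3p minus control on log2(signal + 16), of every probe set of the 10 genes; the large point of each gene is its brightest probe set, open points were under 100 on both arrays, and dashed lines mark 2-fold. YAP1 and WWTR1 points lie between 0.07 and 0.76, TEAD points between -0.76 and -0.14, and target points between -3.77 and -1.41.

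YAP1 was measured by 3 probe sets, all above the filter. The brightest (224894_at) read 2677 on the control array and 2885 on the miR-129-3p array, a log2 difference of 0.11. The next (224895_at) read 1928 and 2314, a difference of 0.26. The dimmest (213342_at) read 485 and 834, a difference of 0.76. All 3 were thus higher with miR-129-3p, by amounts that spanned 0.65, and 1 of them passed 1.5-fold, as 16.7% of all single-name probe sets did in this direction.

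WWTR1, which encodes TAZ, also had 3 probe sets above the filter. The brightest (202133_at) read 4096 on the control array and 4294 on the miR-129-3p array, and the second (202132_at) read 1357 and 1445. Their differences were 0.07 and 0.09. The third (202134_s_at) read 265 and 360, a difference of 0.42. For both co-activators the dimmest probe set had the largest difference. For the brightest probe sets the differences of 0.11 and 0.07 were smaller than the within-gene SD of 0.37. That SD measures disagreement between probe sets and not spread between arrays. In the order of all genes, 53.2% had a more negative difference than WWTR1 and 56.3% than YAP1, close to the middle. A lower YAP1 or WWTR1 transcript level was therefore not seen on any of the 6 probe sets.

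TEAD1 to TEAD4 encode the DNA-binding partners, which share a TEA domain for DNA and a C-terminal domain for YAP and TAZ. All 10 TEAD probe sets had a lower signal with miR-129-3p, including the 3 under the filter. Above the filter this was 7 of 7 TEAD probe sets, beside 47.2% of all single-name probe sets above the filter. TEAD3, on its only probe set (209454_s_at), read 1141 on the control array and 667 on the miR-129-3p array, a difference of -0.76. It was the only TEAD gene at least 1.5-fold lower, a limit passed by 10.8% of all genes in this direction. With the 4 targets, 5 of 10 members were at least 1.5-fold lower and 0 higher, against 17.3% of genes higher.

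TEAD1 read 3990 on the control array and 2688 on the miR-129-3p array on its brightest probe set (224955_at), a difference of -0.57, just short of 1.5-fold at 1.48-fold. Its second (214600_at) read 907 and 653, a difference of -0.46. The third (1553322_s_at) was under the filter, at 93.9 and 62.3. The 3 TEAD1 probe sets gave similar values, between -0.57 and -0.46.

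TEAD4 read 294 and 217 on 1 probe set (204281_at) and 188 and 144 on the other (41037_at), differences of -0.41 and -0.35. TEAD2 read 705 and 562 on its brightest probe set (226408_at) and 196 and 150 on the next (243766_s_at), differences of -0.32 and -0.36. Its remaining probe sets were under the filter, at 92.1 and 82.4 (238322_s_at) and at 28.6 and 21.8 (238323_at). Probe sets of 1 TEAD gene above the filter differed from each other by at most 0.10, less than the pooled within-gene SD. Of the 7 TEAD probe sets above the filter, 4 had a difference larger than that SD, those of TEAD1 and TEAD3 and the brighter one of TEAD4. That SD measures disagreement between probe sets of 1 gene, not spread between cultures or arrays, so it sets no limit of significance. The common direction of the TEAD probe sets is a description of these 2 arrays, since probe sets and genes of 1 array are not replicates. In bulk RNA, fewer cells with a transcript and less transcript per cell cannot be told apart.

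**Figure D3:**
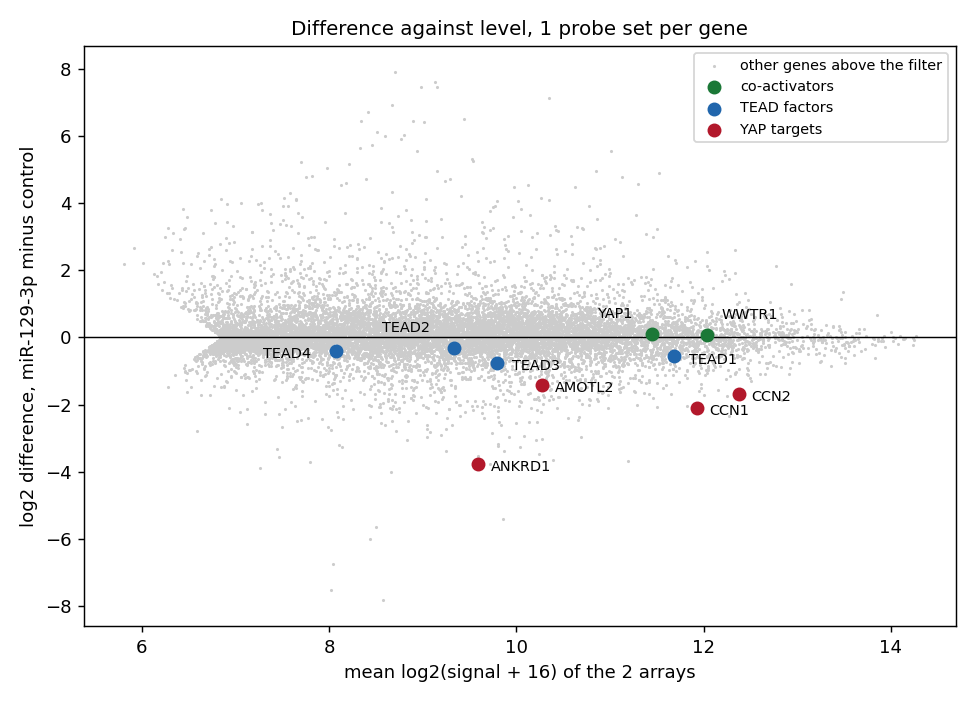
Log2 difference, miR-129-3p minus control, against mean log2(signal + 16) for the 12754 genes above the filter (grey), with the 10 members in colour by role, 1 probe set per gene. CCN1 and CCN2 lie at the lower edge of the bright genes at -2.11 and -1.67, ANKRD1 lies at -3.77, and YAP1 and WWTR1 lie near 0.

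Other YAP targets were taken from a published YAP and TAZ target signature without the 4 members, 18 genes of which 17 were above the filter. Of these, 5 were at least 2-fold lower and 0 at least 2-fold higher, beside 4.56% and 7.83% of all genes above the filter. At 1.5-fold 8 were lower, beside 10.8%, and the median difference was -0.42, beside 0.03 over all genes. TGFB2, a TGF-beta ligand, read 5922 on the control array and 1400 on the miR-129-3p array, a difference of -2.07, and its other 4 probe sets above the filter lay between -2.72 and -0.65. RBMS3, an RNA-binding protein, read 1656 and 411 (-1.97), and its other 4 probe sets above the filter lay between -1.99 and -0.63. CCDC80, an extracellular matrix protein, read 3403 and 1092 (-1.63). F3, the tissue factor that starts blood clotting, read 3707 and 1604 (-1.20).

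At the other end of the signature, NT5E, the ecto-5′-nucleotidase CD73, read 7481 on the control array and 10880 on the miR-129-3p array, a difference of 0.54. Its other probe sets gave 1.45, 1.37 and -0.04, so the count of 0 signature genes at least 2-fold higher rests on the brightest probe sets. IGFBP3, an insulin-like growth factor carrier, read 7561 and 7581 (0.00), and MYOF, a membrane-fusion protein, 6493 and 5590 (-0.22); both were singled out after their values were seen. The signature was therefore mixed, with 13 of 17 genes below 0, beside 6002 of 12754 genes above the filter. Its median lay closer to 0 than that of the 4 members used as classic targets (-1.89). The motif GGAATG or CATTCC was in 5 of 14 promoter windows of the signature (35.7%), those of FOXF2, NUAK2, PTPN14, TGFB2 and 1 of 2 of AXL. These windows covered 13 of the 18 signature genes. NUAK2, the only one with 2 copies, had no probe set of a single gene name and is not among the 17 measured genes. The motif was absent from the windows of RBMS3, CCDC80 and F3, which were at least 2-fold lower. Over all genes above the filter, 11.6% of 758 windows of genes at least 2-fold lower held it, 9.42% of 1232 windows of genes at least 2-fold higher and 9.88% of all 15057 windows. The CArG box bound by SRF, counted on both strands, was in 2.9% of the windows of genes at least 2-fold lower. It was in 1.06% of those at least 2-fold higher and 1.12% of all. Of the windows of the members 0 of 10 held it, but at a share of 1.12% so few windows cannot tell anything about SRF. CCN1 had no window. These windows cover only 250 bases, and TEAD factors bind mostly at distant enhancers.

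Further genes often reported as YAP targets were measured for 5 of 7 chosen. All 5 were below 0, beside 6002 of 12754 genes above the filter. At least 2-fold lower were 2 of the 5, beside 4.56% of genes above the filter. The median of these 5 genes was -0.83 on 1 probe set per gene, a value set by the brightest probe set of THBS1. Over their 18 probe sets above the filter it was -1.77, but genes with several probe sets, such as THBS1 and BIRC5, weigh more there. EDN1, the vasoconstrictor endothelin 1, read 1347 on the control array and 190 on the miR-129-3p array (-2.73). BIRC5, or survivin, an inhibitor of apoptosis that also acts in mitosis, read 1222 and 243 (-2.25). TGM2, a transglutaminase, lay at the other end with 7341 and 6932 (-0.08), but its other probe sets above the filter gave -0.46 and -0.45.

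**Figure D4:**
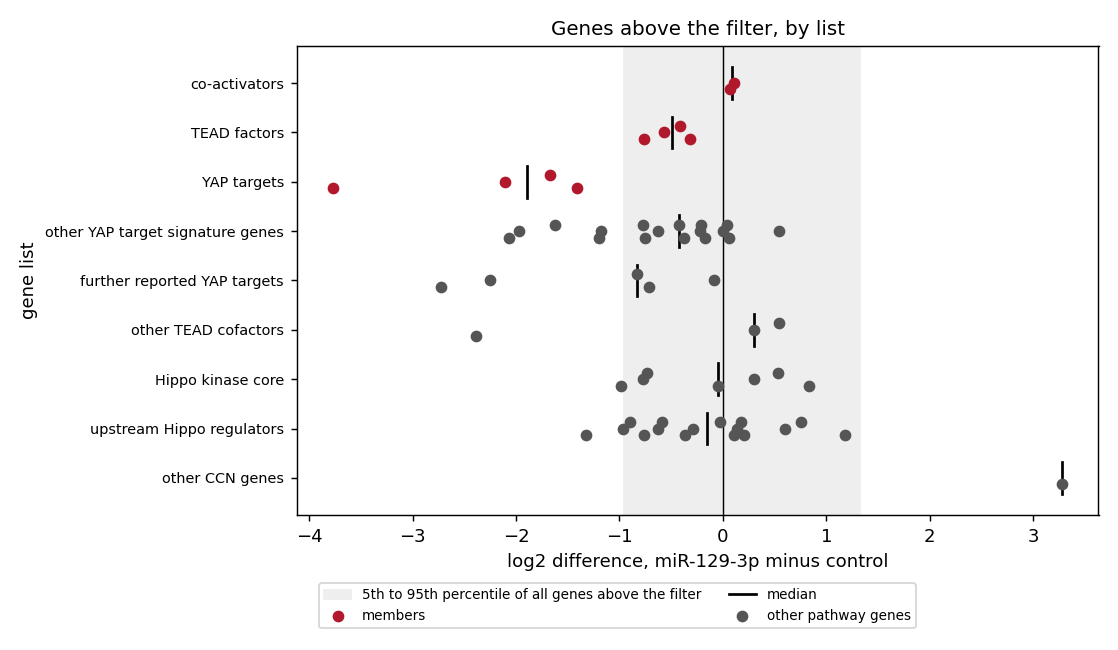
Log2 difference, miR-129-3p minus control, of each gene above the filter by list, 1 probe set per gene, with the members in red, the other pathway genes in grey and the list median as a black line; the grey band spans the 5th to the 95th percentile of all genes above the filter (-0.96 to 1.33). The 4 YAP targets all lie left of the band, while the co-activators, the TEAD genes and the Hippo kinase core lie inside it except for STK3 at its left edge (-0.98).

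The Hippo kinase core restrains YAP and TAZ. Of its 7 genes 3 had a signal at least 1.5-fold lower and 1 at least 1.5-fold higher, 0 passed 2-fold, and the median was -0.05; over all genes 10.8% and 17.3% passed 1.5-fold in these directions. The median of the core and the upstream regulators together was also -0.05, but -0.59 without _x_at and _s_at probe sets. STK3 (MST2), an upstream kinase, read 638 on the control array and 315 on the miR-129-3p array (-0.98), while its paralogue STK4 (MST1) read 651 and 807 (0.30). LATS2, a kinase that phosphorylates YAP and is itself a YAP target, read 2167 and 1263 (-0.77), whereas LATS1 read 1149 and 1670 (0.53). MOB1B, a LATS co-activator, read 910 and 542 (-0.73) and its paralogue MOB1A 2497 and 2413 (-0.05). SAV1, the scaffold of the MST kinases, was the 1 higher gene, at 1248 and 2242 (0.84), with its other probe sets above the filter at 0.82 and 1.10. For each of these 3 paralogue pairs the 2 members thus differed in direction or size; STK4, LATS1, LATS2, MOB1A and MOB1B were singled out after their values were seen.

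Among 16 measured upstream regulators of the cascade, 6 had a signal at least 1.5-fold lower and 3 one at least 1.5-fold higher, beside 10.8% and 17.3% of all genes, so the share of higher genes was near the background. Their median was -0.16. LATS2 of the kinase core (-0.77) and PTPN14 of these regulators (-0.63) are also genes of the target signature. Their lower values are thus counted in both places, and PTPN14 is named for this overlap. NF2, or merlin, which brings LATS kinases to the membrane, read 2020 on the control array and 796 on the miR-129-3p array (-1.33), and its other 3 probe sets above the filter lay between -1.42 and -0.52. TAOK3, a kinase of the family that activates MST kinases, read 486 and 1122 (1.18), with its other probe set at 0.88. The other genes at least 1.5-fold higher were MINK1 (0.75, but 0.22 and -0.32 on its other probe sets above the filter) and TNIK (0.60), kinases of the MAP4K family. AJUBA, a LIM protein that inhibits LATS kinases, read 3703 and 1986 (-0.89), and FRMD6, an NF2 partner, 6121 and 3127 (-0.97), and these 4 were named after their values were seen. AMOTL1, the paralogue of AMOTL2 and also named in this way, read 1555 and 1522 (-0.03), and AMOT was under the filter at 20.0 and 10.9. Both restrainers of YAP such as NF2 and inhibitors of the restrainers such as AJUBA were therefore among the lower genes.

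The vestigial-like proteins bind TEAD factors in place of YAP and TAZ. VGLL3 read 3710 on the control array and 697 on the miR-129-3p array (-2.38), and 284 and 61.2 on its other probe set (-1.96), a larger difference than that of any TEAD gene. VGLL4, which competes with YAP for TEAD, read 1751 and 2564 (0.55), and its other probe set gave 0.56. VGLL2 read 97.2 and 123 (0.30), and VGLL1 was under the filter on all probe sets.

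Paralogues of the targets were compared last. CCN3 (NOV), a relative of CCN1 and CCN2, went the opposite way, from 115 in control to 1253 with miR-129-3p (3.28). Its other probe set, under the filter in control, read 77.0 and 462. CCN4, CCN5 and CCN6 were under the filter, as were ANKRD2 and ANKRD23, the other muscle ankyrin repeat genes of the list.

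Facts of the 2 arrays that touch these values are few. The median signal was 96.5 on the control array and 98.0 on the miR-129-3p array over all probe sets. Of 8 marker genes of retinal pigment epithelium 3 reached 100 on each array: MITF, at 2470 and 1020, OTX2, at 1452 and 1625, and PMEL, at 114 and 229; RPE65, RLBP1, BEST1, TYR and TYRP1, which define the mature tissue, stayed under 100. KRT8, KRT18, CDH2 and VIM, which the cultured line makes, summed to 37347 in control and 29538 with miR-129-3p, and KRT18 read 5787 and 2972 (-0.96). Of 8 blood cell markers measured, 2 reached 100 on each array, with summed signals of 531 on the control array and 523 on the miR-129-3p array. Neuronal markers summed to 331 and 423 over 5 genes, of which 1 reached 100 on the control array and 2 on the miR-129-3p array. For SNAP25, a synaptic gene, another probe set than the one summed read 31.0 and 315, a difference of 2.82 from a control signal under the filter. The part of such markers in the values above was not tested.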

How the data were processed

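The table deposited by the authors gives 1 intensity per probe set for each of 2 arrays. MAS5 and RMA stand in the submitters' processing notes, with no roles given; how the arrays were scaled, the background correction and detection calls are not given in the sources used here. The values are linear. If low intensities were compressed upstream, differences of dim probe sets would be too small. The number of arrays, 1 per group, limits the precision of every value.

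Gene names came from GEO's platform annotation; those with several symbols (1801) or none listed (11721) were left out, and the gene IDs of all 21 member probe sets matched RefSeq. The values were analysed as log2(intensity + 16), miR-129-3p minus control, which understates differences of dim genes. Each gene was represented by the probe set with the highest mean, and a gene counted where the brighter array reached 100. No test was made. The 10 members, the other 7 gene lists, 4 marker lists and this design were chosen with earlier results of these data known. Named were all members and, per list, genes past 2-fold or otherwise the gene at each end, and others only where stated; the values of 1 signature gene past 2-fold are not reported here. Alternatives were median centring, loess (span 0.3), quantile normalization, constants of 1 and 64, no filter, a mean of 200, the mean of probe sets, no _x_at or _s_at probe sets, a floor of 100, and limits of 1.5-fold and 3-fold. Code was tested on simulated data. The tools were pandas 2.3.3 and numpy 2.4.6 under Python 3.11.15, with statsmodels 0.14.6 for loess and matplotlib 3.10.9 for plots.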

Additional observations from a re-analysis of the deposited data

How the results depend on the processing

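The 4 targets were at least 2-fold lower under every scaling, constant, filter and choice of probe sets tried. For ANKRD1, CCN2 and AMOTL2, with 1 bright probe set each, only the scalings and constants could have changed this. At a limit of 1.5-fold the member count was 5 and at 3-fold it was 3. The member median ranged from -0.72 to -0.57, and that of the other signature genes from -0.69 to -0.41. The median of the Hippo pathway genes (kinase core and upstream regulators together) moved from -0.05 to -0.59 without _x_at and _s_at probe sets, which left 17 genes in place of 23. Of 99 single-member values under the alternatives, 98 moved by less than the within-gene SD of 0.37, and CCN1 moved to -2.56 with the mean of its probe sets. Many of the 99 could not move. The filter, floor and _x_at or _s_at settings kept the same brightest probe set, and so the same value, for every member with a value. The mean of probe sets could not change members with 1 probe set. The count of 98 is therefore a weak measure of stability. No member changed direction: YAP1 ranged from 0.07 to 0.38 and WWTR1 from 0.05 to 0.19. TEAD3 has no value without _s_at probe sets. No scaling moved the median of all probe sets by over 0.1. No paired analysis was possible because each group holds 1 array. Signal under the filter limits 3 TEAD probe sets, most of the CCN paralogues, AMOT and VGLL1.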

Other observations

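Several YAP target genes outside the 10 members had probe sets that differed in size or direction. THBS1, the matricellular protein thrombospondin 1, differed by -0.83 on its brightest probe set (9121 in control and 5121 with miR-129-3p) and by -3.58 to -1.47 on its other 6. FSTL1, a secreted follistatin-like protein, differed by -0.72 on a probe set reading 12408 and 7539 and by -1.85 on one reading 476 and 120. For NT5E the 4 probe sets gave 0.54, 1.45, -0.04 and 1.37. These genes were singled out after their values were seen.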
